A study of Heliconius himera and Heliconius erato lativitta and Heliconius erato petiverana with 18 samples.

Results

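Hindwings of Heliconius erato lativitta were compared with hindwings of Heliconius erato petiverana by RNA sequencing of whole pupal wings. The comparison holds 6 of the 18 libraries of the series, chosen by their titles: lativitta hindwing 1 to 3 and petiverana hindwing 1 to 3. Both groups are races for which the labels list no treatment, reared near 27 °C and sampled on day 3 of pupal life, and poly-A RNA was selected. The series examines mRNA abundance in day 3 wings and also holds forewings of both races and both wings of Heliconius himera, with 3 libraries in each group. The labels leave unsaid whether numbered libraries of 1 group stem from different animals. A p-value then reflects only the spread among these libraries, which may be technical. The sources used here give neither sex, family nor dissection batch.

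Heliconius butterflies carry warning colours that differ between races of the same species. Lativitta is a rayed race, with red or orange rays on the hindwing, while petiverana has a red forewing band and a yellow hindwing bar. The colour of a wing scale is laid down during pupal life by pigment pathways, and a small set of patterning genes, among them optix, WntA and cortex, is known to set where each colour forms. The files pair the gene IDs with no gene names, so none of these genes was looked up, the tissue was not checked against marker genes, and IDs are printed as deposited. In whole wings, fewer cells of a type and less RNA per cell cannot be told apart.

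Gene reads ranged from 4599197 to 6372162 in the lativitta hindwings and from 6289619 to 7833916 in the petiverana hindwings. The libraries of the races differed in make-up. Of gene reads, 8.62% to 10.5% in lativitta and 33.3% to 33.7% in petiverana fell on the 10 most abundant IDs, and reads overlapping more than 1 gene (ambiguous reads) made up 1.49% to 1.77% and 0.453% to 0.560% of all reads. Reads outside any annotated gene made up 26.2% to 28.2% in lativitta and 31.3% to 37.2% in petiverana. The lativitta libraries resembled each other, with Spearman correlations across IDs of 0.957 to 0.976. Petiverana hindwing 1 stood apart in its group, at 0.811 and 0.798 with numbers 2 and 3, against 0.953 between those. Each correlation was taken across genes, and genes are no independent replicates.

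A large share of the IDs tested differed between the hindwing libraries of the races. Within this comparison race and the share of ambiguous reads cannot be told apart. Of 9957 IDs tested, 2491 passed (edgeR quasi-likelihood test on all 18 libraries, Benjamini-Hochberg adjusted p under 0.05), which is 25.0% of those tested. In lativitta 1149 IDs were higher (11.5% of those tested) and 1342 were lower (13.5%). The differences were larger among the IDs that were lower in lativitta, with a median log2 fold change of -2.55, against 1.35 for those that were higher and -0.07 over all IDs tested. Of the calls, 67 in the higher direction and 381 in the lower were 32-fold or more, while 346 and 217 were under 2-fold. The 95% interval of the difference lay inside 2-fold either way for 2500 IDs, 25.1% of those tested, of which 85 were called and 2415 were not.

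**Figure D1:**
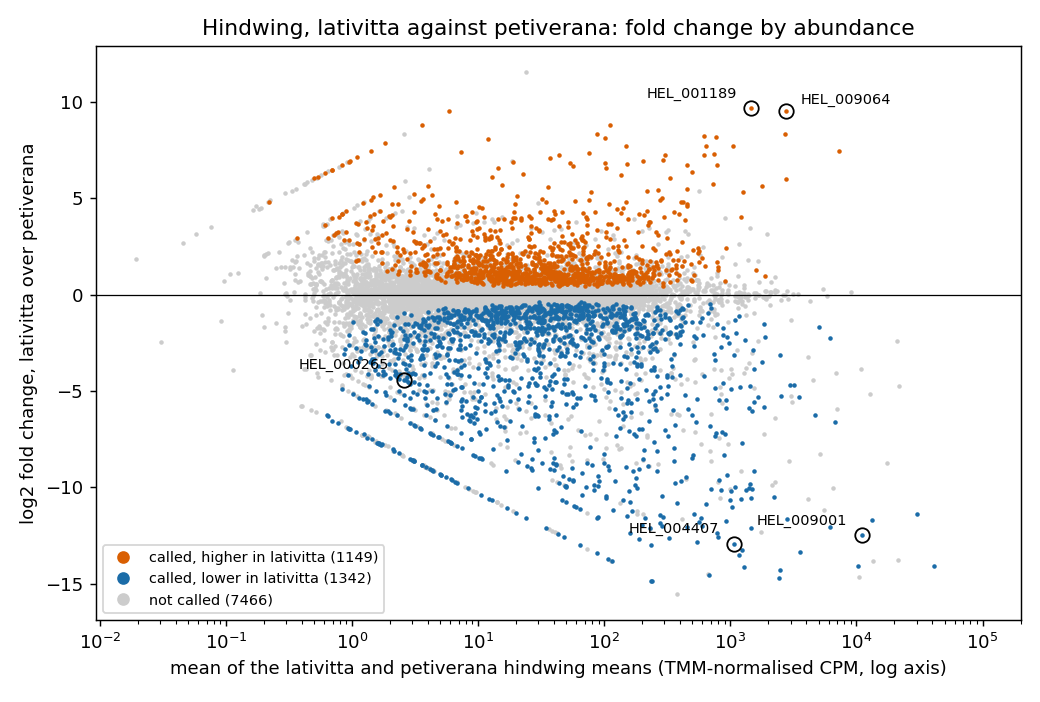
Each point is 1 of 9957 IDs, with its mean level in lativitta and petiverana hindwings (TMM-normalised CPM, counts per 1000000 gene reads, log axis) against its log2 fold change, lativitta over petiverana. The 1149 orange and 1342 blue points passed the test, large negative values are more frequent than large positive ones, and the 5 IDs described in the text are ringed.

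Abundant IDs were called more often than rare ones, and whether this follows from read numbers alone was not tested. Abundance is the mean over the hindwings compared. An ID high in 1 race only can thus enter a high class through its difference. Below a mean of 1 CPM (TMM-normalised counts per 1000000 gene reads) 9.3% of 398 IDs were called, and between 1 and 10 CPM 19.7% of 3163 were. The share was 25.7% of 4828 IDs between 10 and 100 CPM, 37.6% of 1400 between 100 and 1000, and 38.7% of 168 at 1000 CPM or more. Among these 168 most abundant IDs 11 were higher in lativitta and 54 lower. In the lowest class 23 were higher and 14 lower.

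The called IDs also took unequal shares of the sequenced mRNA. IDs called higher in lativitta took 23.8% to 25.4% of gene reads in lativitta hindwings and 2.12% to 2.85% in petiverana hindwings. IDs called lower took 6.01% to 6.52% in lativitta. In petiverana they took 27.3% in number 1 and 44.9% and 47.4% in numbers 2 and 3. That these shares differ between the races follows from how the IDs were chosen. In the summed share of reads of the IDs lower in lativitta, petiverana hindwing 1 lay between the other petiverana libraries and lativitta. Of those IDs, 73 to 84 were above 1000 CPM in each petiverana library, against 2 or 3 in each lativitta library.

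How reads were scaled set the direction of many small differences. TMM scaling factors were 1.33 to 1.58 in lativitta hindwings and 0.522 to 0.730 in petiverana hindwings. Scaled to total gene reads alone, a setting added after the data were seen, the median log2 fold change of all IDs was 1.08, against -0.07 with TMM. That setting called 5414 IDs, 4699 higher and 715 lower in lativitta. Of the 2491 calls with TMM, 1767 were called there with the same sign and 3 with the opposite sign. All changes here are relative to the TMM scale.

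Libraries of the races were often apart without passing the test. In 4557 IDs, 45.8% of those tested, each lativitta hindwing was above or each below every petiverana hindwing, 2253 with lativitta higher and 2304 with lativitta lower (22.6% and 23.1% of those tested). Among calls the groups were apart in 1131 of the 1149 higher IDs and in 1212 of the 1342 lower ones. The remaining 18 and 130 were called although libraries of the races overlapped. Gaps between the nearest libraries were taken on the log2(CPM + 0.5) scale. Among calls a gap of at least 8-fold was found in 78 higher IDs (6.79%) and 198 lower ones (14.8%). A gap of at least 32-fold was found in 26 and 83. The calls rest on these same libraries, and the share of all IDs tested with such gaps was not counted.

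The 2 IDs with the widest gap among those higher in lativitta were HEL_001189 and HEL_009064. HEL_001189 was at 2878, 3152 and 2726 CPM in lativitta hindwings 1 to 3, against 5.48, 0.908 and 4.41 CPM in petiverana hindwings 1 to 3. Every lativitta library was high and every petiverana library near 0, with the lowest lativitta library 497-fold above the highest petiverana one. The means were 2919 ± 216 CPM in lativitta and 3.60 ± 2.39 CPM in petiverana (SD, n = 3 each), from 68915 and 46 reads. The log2 fold change was 9.67 (SE 2.07, edgeR adjusted p = 0.00806). Each of the 6 fits that left out 1 of the compared libraries also called it.

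HEL_009064 was more variable within lativitta. It was at 4541 CPM in lativitta hindwing 1, 9372 CPM in number 2 and 2711 CPM in number 3, against 8.22, 3.63 and 10.6 CPM in petiverana hindwings 1 to 3. The lativitta libraries spanned more than 3-fold, but their lowest was 257-fold above the highest petiverana library. In number 2 the ID alone held 1.25% of gene reads. The log2 fold change was 9.53 (SE 2.44, edgeR adjusted p = 0.0164). The call was lost without petiverana hindwing 2 (adjusted p = 0.0564) or 3 (0.0505).

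Among IDs lower in lativitta the widest gap was that of HEL_009001, an abundant transcript of petiverana hindwings. It was at 3.67, 5.88 and 1.84 CPM in lativitta hindwings 1 to 3, against 18589, 28385 and 18841 CPM in petiverana hindwings 1 to 3. Lativitta held 85 reads of it and petiverana 315473, where it took 0.970% to 2.0% of gene reads. The lowest petiverana library was 3163-fold above the highest lativitta one. The log2 fold change was -12.49 (SE 4.15, edgeR adjusted p = 0.0431), close to the threshold. Without any 1 of the 6 libraries the call was lost, with adjusted p from 0.0557 to 0.126, while the fit of the 6 libraries alone gave 0.00115. It was also lost without a filter (adjusted p = 0.0521), in the 9 hindwing libraries (0.0673), against a 1.5-fold change (0.0691), without both petiverana number 1 libraries (0.059), and without any 1 forewing library of the races (0.0537 to 0.0559) except petiverana forewing 1.

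HEL_004407 came next. It was at 0.333, 0.326 and 0.115 CPM in lativitta hindwings 1 to 3, from 3, 2 and 1 reads, against 1226, 1893 and 3281 CPM in petiverana hindwings 1 to 3. All petiverana libraries were high, and the transcript was close to undetected in lativitta. Over the groups petiverana held 8946 times the lativitta level (exact 95% interval 4110 to 24380, for counting error only). The log2 fold change was -12.94 (SE 3.85, edgeR adjusted p = 0.0292), and the call was lost without lativitta hindwing 1, 2 or 3 (adjusted p 0.0897 to 0.0973) or petiverana hindwing 3 (0.052).

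**Figure D2:**
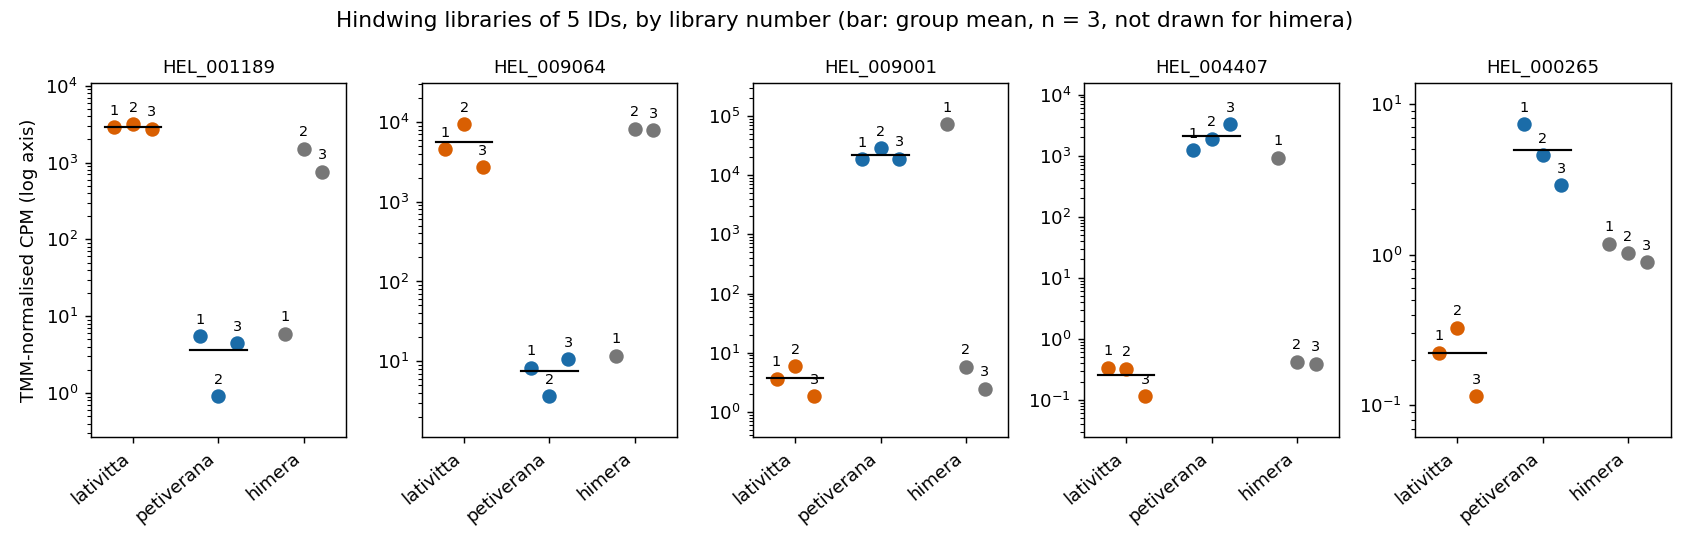
TMM-normalised CPM (log axis) of 5 IDs in each hindwing library, with the library number beside each point and a bar at the mean of the 3 lativitta and the 3 petiverana libraries. HEL_001189 and HEL_009064 are high in lativitta and HEL_009001 and HEL_004407 in petiverana, with himera number 1 on the petiverana side and himera 2 and 3 on the lativitta side, whereas the 3 himera libraries lie together for HEL_000265.

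Some genes were read in the hindwing of 1 race and not in the other. In 17 IDs the petiverana hindwings held 0 reads and the lativitta hindwings at least 30 together, and in 117 the lativitta hindwings held 0 reads and the petiverana hindwings at least 30. Of these IDs 16 and 91 were kept by the filter and tested, and 10 and 48 passed, where 25.0% of all IDs tested passed. These IDs were chosen by their counts in the libraries compared, so nothing is concluded from these shares. Reads of both races were counted against 1 list of IDs, and loss of reads through alignment was not tested. With IDs that had 0 reads in 1 race given 3 reads over that group as a floor, the median log2 fold changes of the called IDs were 1.34 and -2.55.

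Within petiverana, number 1 differed most from the others in IDs that were lower in lativitta. Petiverana hindwing 1 lay 4-fold or more outside both other petiverana hindwings in 309 of these 1342 IDs, above them in 82 and below them in 227. That is 23.0% of them, against 10.2% of all IDs tested. Among the IDs higher in lativitta it did so in 9 of 1149 (0.783%). Both lists were called from these same libraries, so their shares depend on how the IDs were chosen. No lativitta library stood that far apart in more than 0.763% of all IDs. In 62 of the IDs lower in lativitta (4.62%) petiverana hindwing 1 held at least 80% of the summed CPM of its group, against 4.09% of all IDs tested with reads in petiverana.

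Leaving out petiverana hindwing 1 gave 2155 calls, of which 1761 were calls of all 18 libraries with the same sign. Leaving out other libraries cost more. Without lativitta hindwing 1, 2 and 3 the counts were 881, 1238 and 1057, and without petiverana hindwing 2 and 3 they were 1419 and 1425. The balance of directions moved as well. Of the calls, 59.8%, 56.6% and 59.3% were higher in lativitta without lativitta hindwing 1, 2 and 3, against 46.1% with all libraries. In all 6 of these fits and in the fit of all libraries 723 IDs were called with the same sign, which is 7.26% of those tested, 424 higher in lativitta and 299 lower. Their median log2 fold changes were 1.73 and -2.32, their groups were apart in each of the 723, and 720 of them were among the 3380 IDs called by DESeq2 (33.9% of those tested). Against a 1.5-fold change 586 of the 723 were called, where 975 of all 9957 IDs tested were. A further fit had a term for whether a library had a high or low share of ambiguous reads (the ambiguous-read set). It called 228 of the 723, where 825 of all 9957 were called. The 723 were chosen by their calls in these same libraries, so their separation and these counts depend on that choice.

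**Figure D3:**
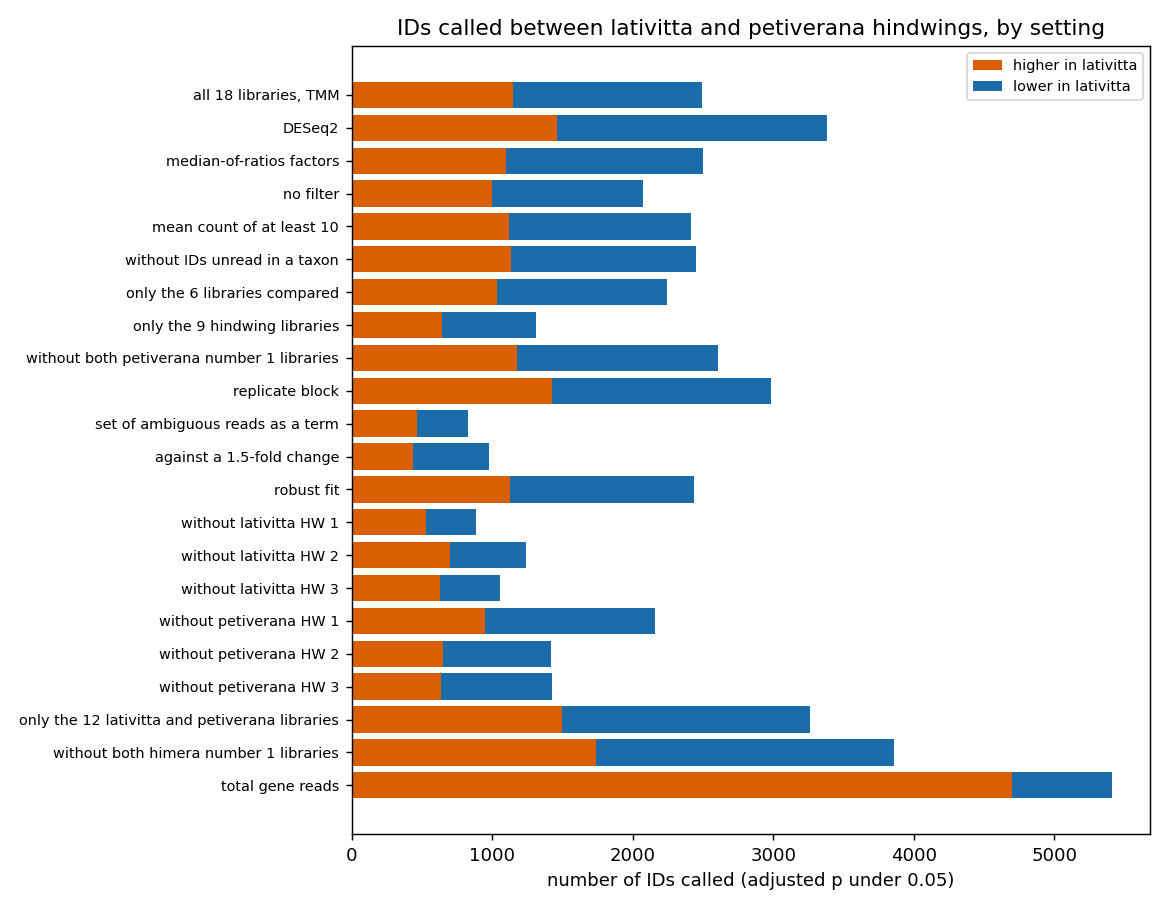
Bars, counted from 0, give the number of IDs called between lativitta and petiverana hindwings (adjusted p under 0.05) under each setting, divided into IDs higher and lower in lativitta. The count is 2491 with all 18 libraries, lies between 825 with the ambiguous-read set as a term and 5414 with total gene reads, and is 881 without lativitta hindwing 1.

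The 3 himera hindwings, which are outside the comparison, fell on both sides of it. For each called ID a library was placed on a scale from 0 at the petiverana hindwing mean to 1 at the lativitta hindwing mean, in log2(CPM + 0.5). Himera hindwing 1 had a median of 0.26 over the 2491 IDs and was nearer to lativitta in 32.3% of them. Himera hindwings 2 and 3 had medians of 0.80 and 0.76 and were nearer to lativitta in 77.7% and 72.7%. The forewings of himera divided in the same way, at 0.29 for number 1 and 0.86 for both others.

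The division was complete for the 4 IDs with the widest gaps. HEL_001189 was at 5.91 CPM in himera hindwing 1 and at 1522 and 759 CPM in numbers 2 and 3, and HEL_009064 at 11.6, 8184 and 7844 CPM. HEL_009001 reached 72267 CPM in himera hindwing 1, above every petiverana hindwing, and was at 5.83 and 2.47 CPM in numbers 2 and 3. HEL_004407 was at 925, 0.416 and 0.395 CPM. In each of the 4 IDs himera 1 was with petiverana and himera 2 and 3 were with lativitta.

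The same division of libraries followed the share of ambiguous reads, which was 0.715% in himera hindwing 1 and 1.52% and 1.44% in numbers 2 and 3. Every lativitta library lies in the set with more such reads and every petiverana library in the set with fewer, so within either set this comparison has samples of 1 race only. With the set as a term, which rests on the himera libraries, 825 IDs passed, 465 higher and 360 lower in lativitta, and 320 of them were calls without the term with the same sign. The log2 fold changes of HEL_001189, HEL_009064, HEL_009001 and HEL_004407 were then 1.72 (edgeR adjusted p = 0.198), -0.30 (0.912), 1.0 (0.618) and -1.17 (0.476). These values depend on the labels of the himera number 1 libraries, which were kept as given. Himera hindwing 1 correlated across IDs at 0.749 and 0.747 with himera hindwings 2 and 3 and at 0.850 to 0.871 with the petiverana hindwings (Spearman), and whether it is labelled correctly was not tested. What the sets stand for was not tested. The fit takes 1 estimate of the spread from all groups, himera included. Without both himera number 1 libraries 3856 IDs were called, 1736 higher and 2120 lower, and they held 2486 of the 2491. With no himera library at all 3264 were called.

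**Figure D4:**
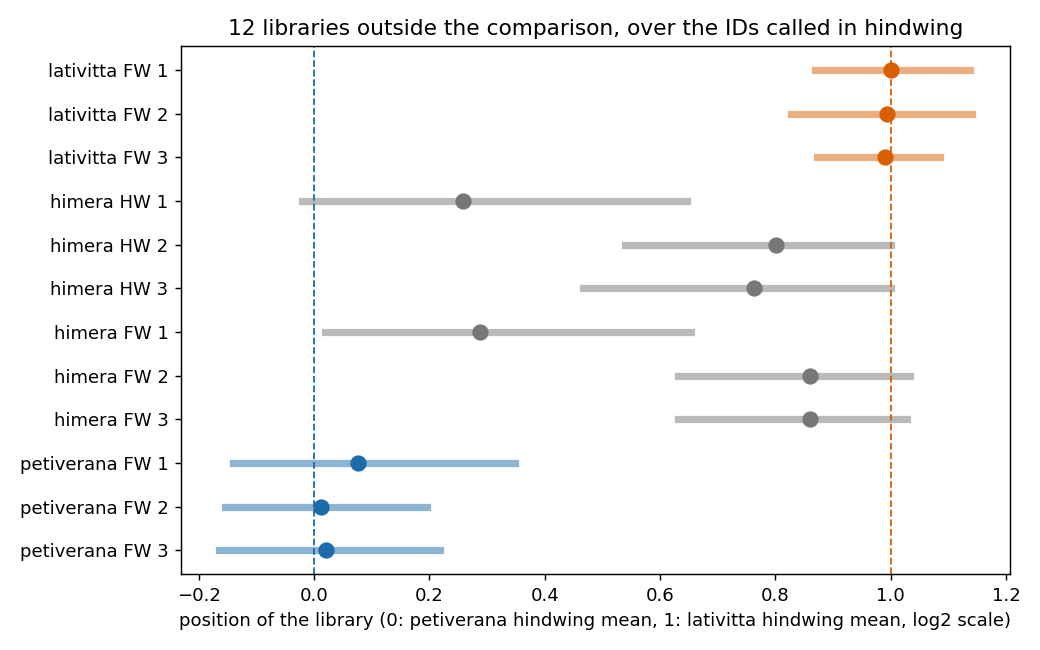
Position of each of the 12 libraries outside the comparison over the 2491 IDs called in hindwing, on a log2 scale where 0 is the petiverana hindwing mean and 1 the lativitta hindwing mean (point: median over IDs, bar: lower to upper quartile). Lativitta forewings lie at 0.99 to 1.0, petiverana forewings at 0.01 to 0.08, himera number 1 libraries at 0.26 and 0.29 and the other himera libraries at 0.76 to 0.86.

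The same IDs were then described in the forewings of both races, whose libraries are outside the hindwing contrast but enter its filter and its estimate of the spread. Forewing and hindwing libraries with the same number deviated together in petiverana (r = 0.93, 0.85 and 0.87 across IDs for numbers 1 to 3) but not throughout in lativitta (0.60, -0.53 and -0.46). Each library was centred on its group mean, so 1 deviating library also moves the values of the others in its group. Whether wings with the same number share animals is not given in the labels and was not tested. The fit has no term for animal, so it handles the wings as independent samples, which may not hold. The forewing counts are therefore given as a description only. Of the 2491 IDs, 2485 (99.8%) had the same sign in forewing, against 90.1% of all IDs tested, and 1906 (76.5%) were also called there, where 24.0% of IDs tested were called. The 1906 are 79.9% of the 2386 forewing calls, and none was called in opposite directions. Without lativitta forewing 1, 2 or 3 the share of hindwing calls also called in forewing was 40.6%, 43.4% and 50.1%. The log2 fold changes of the wings lay within 1 of each other in 88.1% of the IDs called in hindwing. Of the 585 IDs called in hindwing only, 411 had an unadjusted edgeR p under 0.05 in forewing. For neither of these was the share over all IDs tested counted, so they are not read as particular to the calls. For the 4 named IDs the forewing log2 fold changes were 10.58 for HEL_001189, 8.33 for HEL_009064, -11.98 for HEL_009001 and -13.35 for HEL_004407, all with an adjusted p under the threshold.

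**Figure D5:**
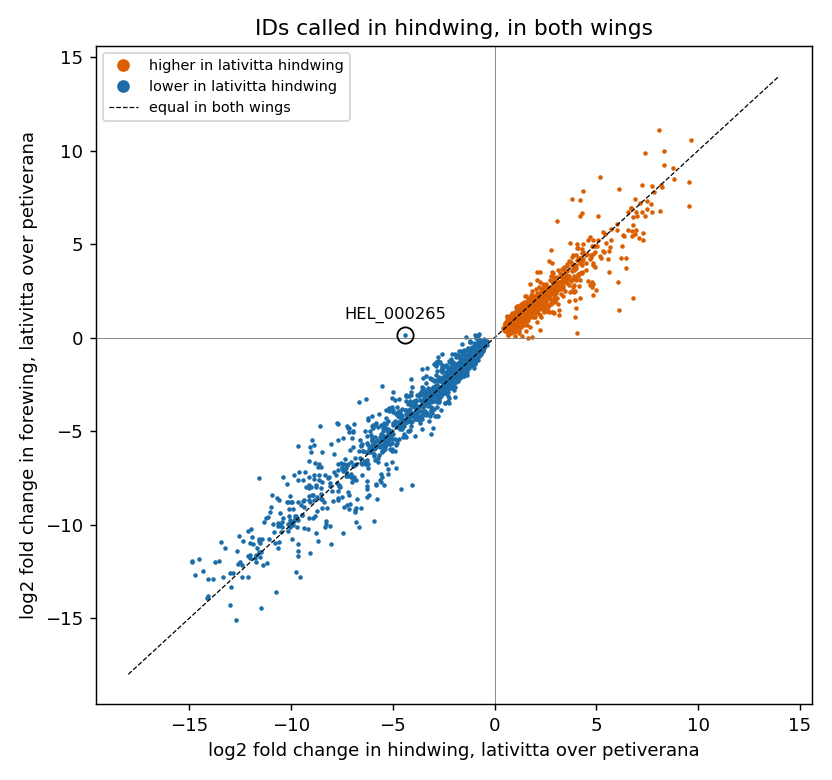
Log2 fold change of lativitta over petiverana in hindwing (horizontal) and forewing (vertical) for the 2491 IDs called in hindwing. Points follow the dashed line of equal difference in both wings, and the ringed HEL_000265 lies off it, at -4.41 in hindwing and 0.16 in forewing.

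Whether the difference between the races depended on the wing was tested directly. No ID passed in edgeR (0 of 9957, 0.00% called), while 7 passed in DESeq2 (0.0703% of those tested). In edgeR 43 IDs reached an unadjusted p under 0.05. That is far fewer than a calibrated test would give even without any dependence on the wing, so the test was conservative here. It has no term for wings that may share an animal. The 0 therefore does not show that the differences are equal in both wings. The ID with the smallest p in edgeR, HEL_000265, differed between the races in hindwing. It was at 0.222, 0.326 and 0.115 CPM in lativitta hindwings 1 to 3, from 2, 2 and 1 reads, against 7.31, 4.54 and 2.88 CPM in petiverana hindwings 1 to 3, from 24, 25 and 15 reads. In forewings it was at 4.85, 7.04 and 3.03 CPM in lativitta and at 6.04, 4.30 and 3.09 CPM in petiverana, where the groups overlap.

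In the hindwing HEL_000265 was lower in lativitta, with a log2 fold change of -4.41 (SE 0.62, edgeR adjusted p = 0.00099), and the petiverana level was 21.8 times the lativitta level (exact 95% interval 8.86 to 69.4, counting error only). In the forewing the log2 fold change was 0.16 (SE 0.49, adjusted p = 0.832). The difference between the wings was -4.57 (SE 0.79), with an unadjusted edgeR p of 4.5e-05 and an adjusted p of 0.448. It passed only in DESeq2 (adjusted p = 0.00425). In the other edgeR settings that fitted the interaction the adjusted p was no lower than 0.202. The himera hindwings lay between the races, at 1.18, 1.02 and 0.889 CPM for numbers 1 to 3, with number 1 beside the others. Unlike those of the 4 IDs with the widest gaps, the hindwing difference of HEL_000265 passed in all 27 other settings. With the ambiguous-read set as a term it was -5.26 (edgeR adjusted p = 0.00284). The ID was picked by its interaction p in these same libraries, which favours a large hindwing difference. The settings reuse those libraries and are no independent support.

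Calls of the same direction were often found at consecutive ID numbers. Of 932 IDs called higher in lativitta whose next number was also tested, 259 (27.8%) were followed by another ID called higher, against 11.5% over all tested IDs with a tested neighbour, and 77 (8.26%) by one called lower, against 12.6%. For the IDs called lower the shares were 28% followed by another lower one, against 12.6%, and 8% by a higher one, against 11.5%. The longest runs held 7 IDs in either direction. The positions of the IDs in the genome were not analysed here, and neighbouring genes that overlap or resemble each other can share or lose reads in the counting.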

How the data were processed

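Poly-A RNA of whole wings was sequenced, per the labels' protocols. Each library has 1 deposited file of raw counts of reads per gene ID. TopHat, bedtools and DESeq2 are named without versions in the submitters' processing notes. Build, annotation and strandedness: not given in the sources used here. The 5 summary rows, 51.1% to 62.4% of reads in the 6 libraries compared, were left out.

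The analysis used edgeR 4.0.16 (R 4.3.3): filterByExpr on the 6 groups (9957 of 14612 IDs kept), TMM factors, glmQLFit with 1 mean per group over 18 libraries (12 residual and 1.95 prior degrees of freedom) and glmQLFTest, with Benjamini-Hochberg adjustment over all 9957 IDs at 0.05. DESeq2 1.42.0 was an alternative. SEs were derived from the F statistic. The steps were run on simulated counts that shared 1 dispersion and, apart from planted changes, 1 mean profile. Those counts lacked the differences in make-up between these libraries, so the run does not bear on their effect. With unnamed IDs, the rule named 2 called IDs per direction by the widest gap between the nearest libraries of the races in log2(CPM + 0.5), and the ID with the smallest interaction p. The preset gene lists could not be used. Members, rules and settings were chosen with earlier results of these data known. No pair of hindwing libraries within a race agreed within sampling noise (lowest chi-square per degree of freedom 15.9).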

Additional observations from a re-analysis of the deposited data

How the results depend on the processing

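The count of 2491 hindwing calls was within 1.5 times under DESeq2 (3380), median-of-ratios factors (2500), the other filters (2075 to 2450), a robust fit, the 6 libraries alone (2247) and without both petiverana number 1 libraries (2607). It was 1313 in the 9 hindwing libraries, 825 with the ambiguous-read set as a term, and 975 against a 1.5-fold change. With settings added after the data were seen it was 3264 in the 12 libraries of the 2 races, 3856 without both himera number 1 libraries and 5414 with total gene reads. Leaving out 1 lativitta or petiverana library of either wing, the forewings added after the data were seen, gave 881 to 2710. The share of calls with the same sign in forewing was 99.3% to 99.9% in those fits, the share also called in forewing 40.6% to 89.6%, and the interaction count 0 in each; DESeq2 gave 7. With the set as a term HEL_009064 turned to -0.30 and HEL_009001 to 1.0. The cause was not tested. Library numbers do not pair the races (r of -0.066 to 0.064 between equal numbers); with the replicate block 2981 IDs were called, and no named ID lost or gained a call. With 3 libraries a group and 5 reads in lativitta hindwings, the size of the HEL_000265 difference is loosely fixed.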
